A study of Mus musculus with 13 samples.

Results

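Notch signalling in the glia of the young mouse spinal cord was read from 10 genes of the pathway, which were taken by symbol from the 39171 genes of a deposited expression table. They are the receptors Notch1, Notch2 and Notch3, the ligands Dll1, Dll3, Jag1 and Jag2, and the target genes Hes1, Hes5 and Hey1. The 13 RNA sequencing libraries came from spinal cord cells of C57BL/6 mice, isolated by flow cytometry in the first weeks of life. Of these, 4 were KO astrocytes (Il33 knockout, 3 mice of postnatal day 12 and 1 of day 9) and 3 were WT astrocytes (control littermates, 2 of day 12 and 1 of day 9). The other libraries were 3 of KO microglia and 3 of WT microglia, all of day 12. Astrocytes were sorted by green fluorescent protein driven by the astrocyte gene Aldh1l1, so both astrocyte groups carried that transgene. Microglia, the resident macrophages of the cord, were sorted by the surface protein CD11b, the product of Itgam. Whether their donors also carried the transgene is not given in the sources used here. Each library was described as a biological replicate, and nothing ties an astrocyte library to a microglia library of the same animal.

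Notch receptors are single-pass proteins that are activated by Delta-like or Jagged ligands on a neighbouring cell. Binding exposes the receptor to an ADAM protease and then to the gamma-secretase complex, which frees an intracellular domain that joins the DNA-binding protein RBPJ and a Mastermind co-activator and turns on repressor genes of the Hes and Hey families. In the developing cord the pathway is known for holding progenitors back from neuronal differentiation and for the generation of astrocytes, and in vessels it patterns endothelial and mural cells.

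Levels are in FPKM, fragments scaled to transcript length and library size, so that genes of different length can be set beside each other. Differences were tested with limma on log2(FPKM + 1), a scale that understates the change of low genes, and a gene was called at a Benjamini-Hochberg adjusted p under 0.05 over all genes tested. The depth of the libraries is not given. From the steps of the lowest values, astrocyte libraries held 33.9% to 66.3% and microglia libraries 75.4% to 100% of the depth of the deepest library, so low values are noisier in astrocytes. The targeted gene Il33 matched the genotype labels, with 0.424 to 2.28 FPKM in KO astrocytes and 96.3 to 112.7 FPKM in WT astrocytes, and with at most 1.26 FPKM in any microglia library. Aldh1l1 stood at 78.4 to 103.7 FPKM in astrocyte libraries and at 0.0971 to 0.642 FPKM in microglia libraries, and Itgam at 0.0993 to 11.7 FPKM in astrocyte libraries and at 532.2 to 648.4 FPKM in microglia libraries. Astrocyte libraries also held markers of oligodendrocytes. The 10 listed summed to 5743 to 8184 FPKM in KO astrocytes and 4551 to 6298 FPKM in WT astrocytes, against 1614 to 2645 FPKM in KO microglia and 1073 to 1822 FPKM in WT microglia. Astrocyte markers, 10 listed, summed to 6966 to 12142 FPKM in KO astrocytes and 7072 to 13891 FPKM in WT astrocytes. The part of oligodendrocyte RNA in the differences between the cell types was not tested. Dissociation-induced genes, 12 listed, were far higher in microglia libraries. They summed to 54.7 to 69.7 FPKM in KO astrocytes and 62.7 to 83.5 FPKM in WT astrocytes. In KO microglia the sum was 2593 to 3000 FPKM and in WT microglia 3984 to 5572 FPKM. Their part in the differences between the cell types was not tested. WT microglia libraries were the least alike, with a correlation as low as 0.760 between a pair of them across genes.

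Of the 10 genes, 8 had a promoter in the RefSeq table of build GRCm38.p6, from 250 bases before to 50 bases after the gene start, and Hes1 and Hey1 did not. The promoters of Hes5, Notch3 and Jag1 are shown as one gene of each role that was called between the cell types in both genotypes. Capitals mark TGGGAA, the core of the sequence bound by RBPJ, on either strand. The Hes5 promoter is chr4:154960673-154960972 on the plus strand, the Notch3 promoter chr17:32166841-32167140 on the minus strand and the Jag1 promoter chr2:137116471-137116770 on the minus strand.
Hes5: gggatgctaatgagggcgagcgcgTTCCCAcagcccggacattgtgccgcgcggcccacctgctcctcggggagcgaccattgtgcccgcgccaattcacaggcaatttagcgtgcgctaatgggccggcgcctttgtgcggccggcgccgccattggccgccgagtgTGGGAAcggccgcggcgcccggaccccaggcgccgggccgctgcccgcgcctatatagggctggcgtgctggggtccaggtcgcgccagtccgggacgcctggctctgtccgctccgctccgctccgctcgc
Notch3: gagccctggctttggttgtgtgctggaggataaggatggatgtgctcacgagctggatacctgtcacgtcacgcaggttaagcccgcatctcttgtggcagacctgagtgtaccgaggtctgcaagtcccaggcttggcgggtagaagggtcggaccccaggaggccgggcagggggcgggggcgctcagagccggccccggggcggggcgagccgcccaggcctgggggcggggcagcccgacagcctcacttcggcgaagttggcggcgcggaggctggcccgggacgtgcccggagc
Jag1: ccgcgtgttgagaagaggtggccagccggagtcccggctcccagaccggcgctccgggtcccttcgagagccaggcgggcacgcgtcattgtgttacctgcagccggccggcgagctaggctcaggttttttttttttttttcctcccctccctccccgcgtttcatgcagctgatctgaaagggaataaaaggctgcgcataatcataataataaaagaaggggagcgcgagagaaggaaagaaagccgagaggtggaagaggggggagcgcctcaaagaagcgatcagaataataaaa
Hes5 was the only one of the 8 genes whose window held the core. It held it at -226 on the other strand and at -82 on the gene's own strand, counted from the gene start. Both copies were part of the longer run GTGGGAA. Of 32851 mouse promoters of this length, 25.6% held TGGGAA at least once and 3.79% at least 2 times, and 0.256% held GTGGGAA at least 2 times. A match of letters is a description of the window and does not show binding.

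Astrocytes and microglia differed in which Notch genes they expressed. Notch3, Jag1, Hes5 and Hey1 were higher in astrocytes of both genotypes, whereas the ranges of Notch1 and Hes1 overlapped between the 2 cell types and neither gene passed the test in either genotype. Of the 10 genes, 7 passed the filter on low values (a mean of at least 1 FPKM over the 13 libraries), and Dll1, Dll3 and Jag2 did not. In KO mice 5 of the 7 were called, all higher in astrocytes, where 56.9% of 16258 tested genes were called and 25.1% were called higher in astrocytes. In WT mice 4 of the 7 were called, all higher in astrocytes, where 53.6% of the tested genes were called and 24.5% were called higher in astrocytes. Notch3, Jag1, Hes5 and Hey1 passed the filter through their astrocyte values, so these counts describe the genes named and not the set as a whole. Of all 10 genes, 5 lay higher in every KO astrocyte library than in any KO microglia library and 1 lay lower, where 62.3% of tested genes did not overlap, 28.1% higher and 34.2% lower. In WT mice 4 lay higher and 1 lower, where 55.8% did not overlap, 25.7% higher and 30.1% lower. In bulk libraries of sorted cells, fewer cells that express a gene and less RNA per cell cannot be told apart.

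**Figure D1:**
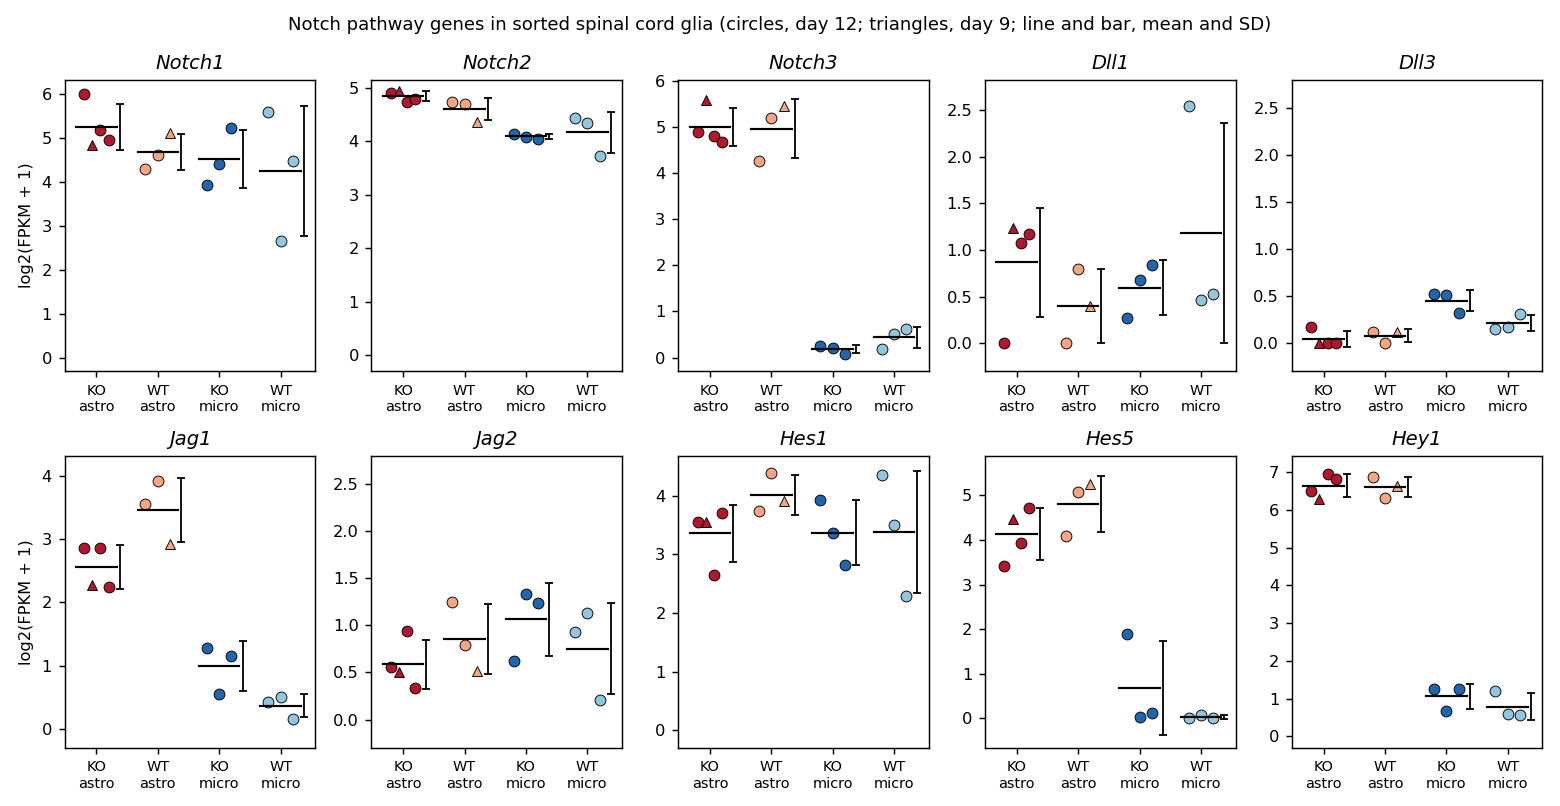
Level of each of the 10 Notch pathway genes in every library, as log2(FPKM + 1) on the vertical axis, for KO astrocytes, WT astrocytes, KO microglia and WT microglia. Circles are day 12 and triangles day 9, and the line and bar give the mean and SD of 4, 3, 3 and 3 libraries. Notch3, Jag1, Hes5 and Hey1 separate the cell types, and Notch1 and Hes1 overlap between them.

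Of the receptors, Notch3 was the one that separated the cell types. Notch3 (ENSMUSG00000038146, chromosome 17, 32120820 to 32166852, minus strand, GRCm38) is also known as the receptor of mural cells around vessels. It read 28.6, 47.1, 26.8 and 24.4 FPKM in KO astrocytes and 18.0, 35.4 and 42.7 FPKM in WT astrocytes. In microglia it read 0.193, 0.155 and 0.0552 FPKM in KO mice and 0.141, 0.415 and 0.528 FPKM in WT mice. All 7 astrocyte libraries lay far above all 6 microglia libraries. The ratio of group means was 236-fold in KO mice and 88.6-fold in WT mice, and the log2 difference was 4.61 ± 0.24 in KO mice (SE, limma adjusted p = 7.18e-08) and 4.27 ± 0.26 in WT mice (SE, limma adjusted p = 2.81e-07). Its level in single microglia libraries was 0.173% to 1.66% of the astrocyte mean. The summed astrocyte markers of those libraries stood at 0.845% to 1.28% of theirs, and the part of carried-over astrocyte RNA in this low level was not tested. Mural markers, 10 listed, summed to 10.5 to 48.4 FPKM in KO astrocytes and 16.1 to 34.3 FPKM in WT astrocytes, with Higd1b at 0 in all WT astrocyte libraries, and their part in Notch3 was not tested. The lowest mural sums, 10.5 and 16.1 FPKM, were in the day 9 libraries of KO and WT astrocytes. Those libraries also had the highest Notch3, so age and the mural sum cannot be told apart there.

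Notch1 and Notch2 were expressed in both cell types. Notch1 (ENSMUSG00000026923, chromosome 2, 26457903 to 26516663, minus strand), the widely expressed receptor of neural progenitors, read 63.3, 27.6, 35.4 and 29.99 FPKM in KO astrocytes and 18.7, 23.6 and 33.6 FPKM in WT astrocytes. In microglia it read 14.2, 20.2 and 36.7 FPKM in KO mice and 47.4, 5.36 and 21.3 FPKM in WT mice. The groups overlapped, and the 3 WT microglia libraries alone reached below and above most astrocyte libraries. The log2 difference of astrocytes over microglia was 0.72 in KO mice (95% interval -0.69 to 2.13, limma adjusted p = 0.355) and 0.42 in WT mice (95% interval -1.11 to 1.96, limma adjusted p = 0.629).

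Notch2 (ENSMUSG00000027878, chromosome 3, 98013527 to 98150361, plus strand) had the smallest spread relative to its mean of the 10 genes in each group. It read 28.9, 29.7, 25.6 and 26.8 FPKM in KO astrocytes against 16.7, 16.02 and 15.5 FPKM in KO microglia, and 25.8, 24.9 and 19.7 FPKM in WT astrocytes against 20.6, 19.4 and 12.2 FPKM in WT microglia. All KO astrocyte libraries were above all KO microglia libraries, while the WT groups overlapped. The log2 difference was 0.77 ± 0.20 in KO mice (SE, limma adjusted p = 0.00751) and 0.47 ± 0.22 in WT mice (SE, limma adjusted p = 0.0983). Its direction depended on the scaling between libraries: with each library rescaled to the same sum, it was -0.05 in KO mice (limma adjusted p = 0.874) and -0.65 in WT mice (limma adjusted p = 0.0343). That rescaling also moved the median of all tested genes to -0.88 in KO mice and -1.07 in WT mice, since the summed FPKM of astrocyte libraries was higher. Shares within a library are not altered by scaling between libraries. Of the summed FPKM of the 3 receptors, Notch3 made up 32.3% ± 9.06 in KO astrocytes against 0.384% ± 0.261 in KO microglia, and 38.5% ± 8.46 in WT astrocytes against 1.14% ± 0.806 in WT microglia (SD, n = 4, 3, 3 and 3).

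**Figure D2:**
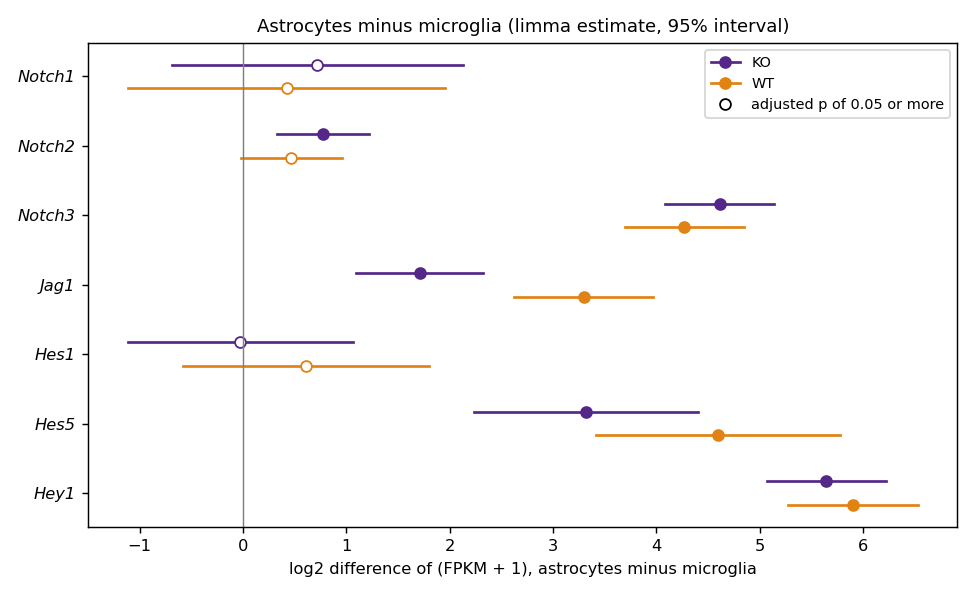
Difference between astrocytes and microglia, KO above WT for each gene, on the log2(FPKM + 1) scale, with the 95% interval of the limma estimate. Filled points passed the test and open points did not. Notch3, Jag1, Hes5 and Hey1 lie to the right of 0 in both genotypes, and the intervals of Notch1 and Hes1 span 0.

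Jag1 was the main ligand of astrocytes, and the Delta-like ligands and Jag2 were low in both cell types. Jag1 (ENSMUSG00000027276, chromosome 2, 137081456 to 137116644, minus strand), a Jagged ligand that is also strongly expressed by endothelial cells, read 6.23, 3.85, 6.24 and 3.71 FPKM in KO astrocytes and 10.8, 14.1 and 6.55 FPKM in WT astrocytes. The microglia libraries gave 1.43, 0.457 and 1.21 FPKM in KO mice and 0.348, 0.422 and 0.113 FPKM in WT mice. No astrocyte library fell as low as a microglia library. The log2 difference was 1.71 ± 0.28 in KO mice (SE, limma adjusted p = 0.000370) and 3.29 ± 0.30 in WT mice (SE, limma adjusted p = 6.07e-06), and it was 0.92 and 2.01 with libraries rescaled to the same sum. Jag1 made up 76.6% ± 10.2 of the summed FPKM of the 4 ligands in KO astrocytes against 34.5% ± 19.9 in KO microglia, and 89.1% ± 1.36 in WT astrocytes against 12.5% ± 7.17 in WT microglia (SD, n = 4, 3, 3 and 3).

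Dll1, the Delta-like ligand of committed progenitors (ENSMUSG00000014773, chromosome 17, 15367354 to 15376872, minus strand), read 0, 1.35, 1.11 and 1.25 FPKM in KO astrocytes and 0, 0.735 and 0.318 FPKM in WT astrocytes. In microglia it read 0.207, 0.607 and 0.788 FPKM in KO mice and 4.85, 0.381 and 0.448 FPKM in WT mice. The 4.85 FPKM of WT microglia 1 stood apart from the other 12 libraries. That library also had the highest summed oligodendrocyte precursor markers of the microglia, 176.5 FPKM over the 9 of 10 listed markers that matched, against 69.9 to 84.5 FPKM in KO microglia and 38.9 and 62.1 FPKM in the other WT microglia; Pdgfra, a defining marker, was at 5.07 FPKM there. Of the microglia libraries it also had the highest sums of neuron (51.1 FPKM), mural (21.7 FPKM) and fibroblast and meninges (19.2 FPKM) markers. The same held for border macrophage markers (669.7 FPKM), and not for endothelial, ependymal or oligodendrocyte markers. The part of any of these cell types in its Dll1 level was not tested.

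Dll3 (ENSMUSG00000003436, chromosome 7, 28293553 to 28302238, minus strand) is a divergent Delta-like protein that is known in mice to act inside the cell rather than to activate receptors on neighbours. It was listed at 0.125, 0, 0 and 0 FPKM in KO astrocytes and at 0.0832, 0 and 0.0890 FPKM in WT astrocytes, and at 0.433, 0.427 and 0.253 FPKM in KO microglia and 0.113, 0.126 and 0.239 FPKM in WT microglia. Every microglia library was at or above 0.113 FPKM, and 4 of the 7 astrocyte libraries were at 0. Without the filter on low values, Dll3 was called in KO mice, lower in astrocytes by a log2 difference of -0.41 (limma adjusted p = 0.00176), and not in WT mice, with -0.13 (limma adjusted p = 0.255).

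Jag2 (ENSMUSG00000002799, chromosome 12, 112907819 to 112929776, minus strand), the other Jagged ligand, lay between 0.257 and 0.917 FPKM in KO astrocytes and between 0.432 and 1.38 FPKM in WT astrocytes, against 0.537 to 1.53 FPKM in KO microglia and 0.153 to 1.19 FPKM in WT microglia. All 4 groups overlapped. Without the filter its log2 difference was -0.41 in KO mice (limma adjusted p = 0.356) and 0.20 in WT mice (limma adjusted p = 0.692).

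The 3 targets differed in kind. Hey1 and Hes5 were astrocyte genes in these libraries, and Hes1 was the most abundant target in microglia. Hey1 (ENSMUSG00000040289, chromosome 3, 8663359 to 8667256, minus strand), a repressor of the Hey family, had the highest level of the 10 genes in every astrocyte library. It read 90.2, 76.8, 122.8 and 112.4 FPKM in KO astrocytes and 115.8, 79.0 and 98.4 FPKM in WT astrocytes, and its mean lay above 96.6% of protein-coding genes in KO astrocytes and 96.5% in WT astrocytes. In microglia it read 1.40, 0.586 and 1.38 FPKM in KO mice and 1.29, 0.522 and 0.469 FPKM in WT mice. The 2 cell types were far apart and the 2 genotypes overlapped. The log2 difference was 5.64 ± 0.26 in KO mice (SE, limma adjusted p = 3.33e-08) and 5.90 ± 0.28 in WT mice (SE, limma adjusted p = 5.54e-08). In single microglia libraries Hey1 was at 0.472% to 1.41% of the astrocyte mean, beside the 0.845% to 1.28% of the summed astrocyte markers.

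Hes5 (ENSMUSG00000048001, chromosome 4, 154960923 to 154962371, plus strand) is a repressor known as a close readout of Notch activity in neural progenitors. Of the 8 genes with a promoter, which left out Hes1 and Hey1, it alone held the RBPJ core there. It read 9.70, 21.2, 14.2 and 25.5 FPKM in KO astrocytes and 15.9, 32.8 and 37.2 FPKM in WT astrocytes. Microglia held 2.70, 0.0183 and 0.0890 FPKM in KO mice and 0, 0.0535 and 0 FPKM in WT mice. Of the 6 microglia libraries, KO microglia 1 alone was above 0.1 FPKM. That library had Hes5 at 12.1% of the astrocyte mean and its summed astrocyte markers at 1.27% of theirs. The log2 difference was 3.32 ± 0.49 in KO mice (SE, limma adjusted p = 0.000193) and 4.59 ± 0.53 in WT mice (SE, limma adjusted p = 3.64e-05). With a pseudocount of 0.1 in place of 1 it was 5.24 and 7.67, since the microglia values were near 0.

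Hes1 (ENSMUSG00000022528, chromosome 16, 30064384 to 30067796, plus strand), a repressor that other signals besides Notch are also known to induce, read 10.8, 10.8, 5.25 and 11.99 FPKM in KO astrocytes and 12.3, 20.0 and 14.1 FPKM in WT astrocytes. The microglia values were 14.2, 9.33 and 6.09 FPKM in KO mice and 19.6, 10.3 and 3.90 FPKM in WT mice. The ranges of the 2 cell types overlapped in both genotypes. The log2 difference was -0.03 in KO mice (95% interval -1.11 to 1.06, limma adjusted p = 0.981) and 0.61 in WT mice (95% interval -0.58 to 1.80, limma adjusted p = 0.358). Of the summed FPKM of the 3 targets, Hes1 made up 7.83% ± 2.89 in KO astrocytes against 84.0% ± 8.67 in KO microglia, and 11.1% ± 3.58 in WT astrocytes against 92.6% ± 2.91 in WT microglia (SD, n = 4, 3, 3 and 3). The sum itself was 127.9 ± 21.2 FPKM in KO astrocytes against 11.9 ± 5.65 FPKM in KO microglia, and 141.8 ± 9.13 FPKM in WT astrocytes against 12.03 ± 8.30 FPKM in WT microglia.

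Within a cell type the order of the levels was as follows. In KO astrocytes Hey1 came first, followed by Notch1, Notch3 and Notch2, whose ranges overlapped in turn, by Hes5, Hes1 and Jag1, which also overlapped in turn, and by Dll1, Jag2 and Dll3. The ranges of Hey1 and Notch1, of Notch2 and Hes5, and of Jag1 and Dll1 did not overlap. In WT astrocytes Hey1 was again first with no overlap, the ranges of Notch3, Hes5, Notch1, Notch2, Hes1 and Jag1 each overlapped the next, and Jag1 stood clear of Jag2, Dll1 and Dll3. In microglia of both genotypes Notch1, Notch2 and Hes1 were the 3 highest and the other 7 genes had means under 2 FPKM. Notch1 overlapped Notch2 in both genotypes, and Hes1 was clear of Notch2 in KO microglia only, 6.09 to 14.2 FPKM against 15.5 to 16.7 FPKM.

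Some other genes had profiles close to those of the Notch genes across the 13 libraries, by the root-mean-square difference of centred log2(FPKM + 1) among 12400 protein-coding genes. For Notch3 these were Grm3, a metabotropic glutamate receptor, at 0.24, and Robo1, a Slit receptor, at 0.24, against a median of 2.37 over all genes. Grm3 averaged 30.1 ± 13.6 FPKM in astrocytes and 0.214 ± 0.157 FPKM in microglia (SD, n = 7 and 6). For Hey1 they were Astn1 (0.25) and Fermt2 (0.26), for Hes5 Hmgn3 (0.41) and Gm266 (0.43), and for Jag1 Slc16a9 (0.26) and Shank3 (0.26). For Notch1 they were Nutf2 (0.46) and Dnajc4 (0.46), for Notch2 Sdf2 (0.13) and Nova1 (0.15), and for Hes1 Klf7 (0.39) and Syap1 (0.40).

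The rest of the pathway held genes that were higher and genes that were lower in astrocytes. Of 50 further pathway genes, 44 were tested. In KO mice 10 were called higher in astrocytes and 18 lower, and in WT mice 12 higher and 15 lower, beside the 25.1% higher and 31.9% lower in KO mice and the 24.5% higher and 29.1% lower in WT mice of all tested genes. With libraries rescaled to the same sum these counts were 5 higher and 23 lower in KO mice, and 5 higher and 25 lower in WT mice, and the higher calls of Mib1 and Dtx3 in both genotypes and of Fbxw7 in WT mice turned round in sign. The median log2 difference of the 44 was -0.12 in KO mice and -0.19 in WT mice, against -0.24 and -0.21 over all tested genes.

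Of the 5 further genes with the largest differences towards astrocytes, 4 were targets or members of the target families. Of 6 tested among 8 further targets and target-family members, Hey2, Heyl, Nrarp and Bhlhe40 were called higher in both genotypes. Over all tested genes 25.1% in KO mice and 24.5% in WT mice were called higher. Hes7 was called lower in WT mice, at -1.63 (limma adjusted p = 0.00408), and not in KO mice, and Hes6 was called in neither. Heyl, another Hey repressor, read 27.8 to 31.3 FPKM in KO astrocytes against 0.309 to 0.557 FPKM in KO microglia, and 31.4, 83.9 and 22.8 FPKM in WT astrocytes against 0.340 to 0.6245 FPKM in WT microglia. Its log2 difference was 4.54 ± 0.34 in KO mice (SE, limma adjusted p = 1.04e-06) and 4.98 ± 0.37 in WT mice (SE, limma adjusted p = 1.16e-06). The 83.9 FPKM belonged to WT astrocytes 2, well above the other astrocyte libraries. Hey2 differed by 4.05 and 3.36 on the log2 scale in KO and WT mice. Nrarp, a target that feeds back on the receptor domain, differed by 3.56 and 3.37, and Bhlhe40, a stress- and clock-related repressor, by 3.97 and 3.80. Nrarp was not near 0 in microglia, where it read 2.05 to 3.64 FPKM in KO mice and 3.35 to 4.80 FPKM in WT mice.

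The largest difference towards astrocytes was that of Dtx1, a Deltex ubiquitin ligase that binds the receptor's intracellular part. It read 45.7, 79.6, 44.5 and 82.1 FPKM in KO astrocytes against 1.07, 0.210 and 1.83 FPKM in KO microglia, and 46.7, 32.1 and 66.3 FPKM in WT astrocytes against 0.455, 0.160 and 0.0452 FPKM in WT microglia. The log2 difference was 4.84 in KO mice and 5.08 in WT mice (limma adjusted p = 5.98e-07 and 9.43e-07). Of the 10 genes of Numb, Deltex and receptor turnover, 2 were called higher and 4 lower in KO mice and 3 higher and 3 lower in WT mice. In all tested genes the calls, both directions pooled, were 56.9% in KO mice and 53.6% in WT mice. Numb, which antagonises the receptor, was lower in astrocytes, at 3.97 to 16.2 FPKM in KO mice against 115.5 to 146.6 FPKM in KO microglia, and at 6.61 to 26.8 FPKM in WT mice against 88.6 to 103.3 FPKM in WT microglia. Its log2 difference was -3.58 in KO mice and -2.98 in WT mice.

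The receptor-cutting proteases and some genes of the nuclear complex were lower in astrocytes than in microglia. All 3 proteases of the receptor ectodomain were called lower in astrocytes of both genotypes. Adam10, the sheddase that makes the first cut after ligand binding, read 11.1 to 18.5 FPKM in KO astrocytes against 62.3 to 87.2 FPKM in KO microglia, and 7.96 to 18.1 FPKM in WT astrocytes against 69.4 to 95.9 FPKM in WT microglia. The log2 difference of Adam10 was -2.34 and -2.53 in KO and WT mice, that of Adam17 -2.01 and -1.45, and that of Furin, which cuts the receptor during its maturation, -0.88 and -1.08. Of all tested genes, 31.9% in KO mice and 29.1% in WT mice were called lower. Of the 9 genes of the nuclear complex, 4 were called lower in both genotypes, namely Rbpj (-1.15 and -0.999), Maml1 (-1.38 and -0.75), Maml3 (-3.02 and -3.03) and Ep300 (-1.13 and -1.27). Spen, a co-repressor of RBPJ, was called higher in WT mice, at 1.43 (limma adjusted p = 0.0499), where WT astrocytes 2 read 97.7 FPKM, and the call was lost under both other scalings.

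Of the 5 sugar-adding enzymes of the receptor, 1 was called higher and 2 lower in KO mice, and 1 higher and 1 lower in WT mice. Calls over all tested genes were 25.1% higher and 31.9% lower in KO mice, and 24.5% higher and 29.1% lower in WT mice. Mfng, a Fringe enzyme, read 0.0959 to 1.17 FPKM in KO astrocytes against 30.3 to 43.7 FPKM in KO microglia, and 1.52, 0.114 and 0 FPKM in WT astrocytes against 27.6 to 50.5 FPKM in WT microglia. Its log2 difference was -4.36 ± 0.39 in KO mice (SE, limma adjusted p = 4.64e-06) and -4.75 ± 0.43 in WT mice (SE, limma adjusted p = 5.26e-06). Pofut1, which adds fucose to the receptor, was called lower in KO mice, at -1.25 (limma adjusted p = 0.0244), and not in WT mice. Lfng, another Fringe, was higher in astrocytes by 1.43 in KO mice and 1.33 in WT mice, a call that was lost with libraries rescaled to the same sum. Of the 7 gamma-secretase subunits, Aph1a and Aph1b were called higher, by 0.98 and 1.46 in KO mice and 1.33 and 1.66 in WT mice, and the call of Aph1a was also lost under that rescaling. Ncstn, another subunit, was called lower, at -1.51 in KO mice and -1.37 in WT mice. Of 3 tested ubiquitin ligases of the ligands, Neurl1a was lower in astrocytes, at -2.84 in KO mice and -2.56 in WT mice. Mib2 was called lower in KO mice, at -2.34, and not in WT mice, and Mib1 was called higher, by 0.64 in KO mice and 1.11 in WT mice, with the sign turned round under the equal-sum rescaling.

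**Figure D3:**
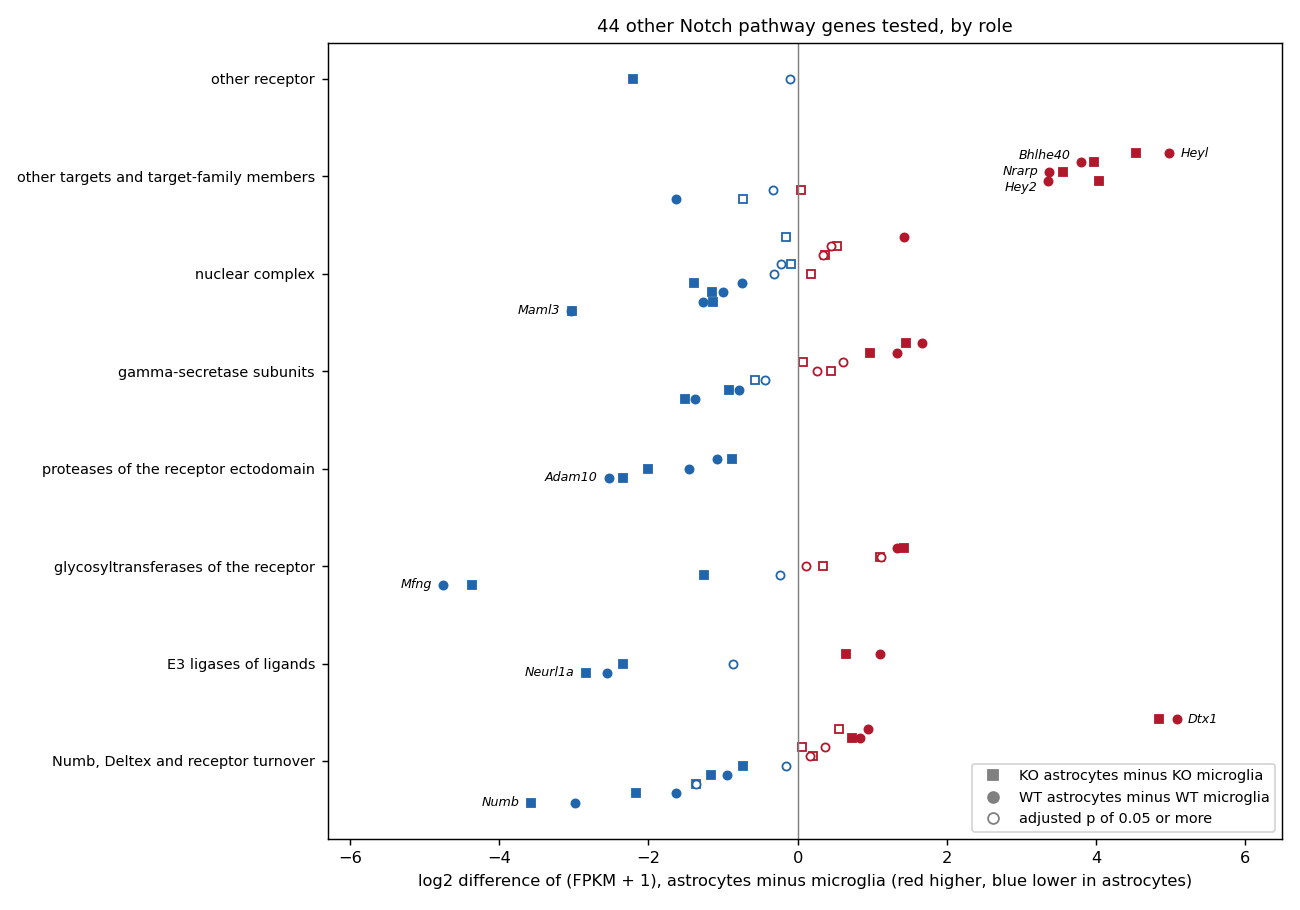
Difference between astrocytes and microglia of 44 further pathway genes, by role, on the log2(FPKM + 1) scale, with squares for KO mice and circles for WT mice and filled marks for genes that passed the test. Dtx1 and the targets Heyl, Hey2, Nrarp and Bhlhe40 lie furthest to the right, and Mfng, Numb, Maml3, Neurl1a and Adam10 furthest to the left.

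Loss of Il33 was not followed by a called change of a Notch gene in either cell type. In astrocytes 0 of the 7 tested genes were called with limma, 1 at an unadjusted p under 0.05, where 0.0224% of 13397 tested genes were called. In microglia 4 of the 10 genes passed the filter, and 0 were called with limma, 0 at an unadjusted p under 0.05, where 0.0818% of 15889 tested genes were called. These shares are 3 and 13 genes, so few genes of any kind were called. Of the 50 further pathway genes, 41 were tested in astrocytes and 39 in microglia, and 0 were called in either, with 3 in astrocytes and 2 in microglia at an unadjusted p under 0.05. Among all tested genes, 561 of 13397 in astrocytes and 1265 of 15889 in microglia had such a p with limma.

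Jag1 in astrocytes had the smallest p of the 7 genes tested there. Its 4 KO libraries, 3.71 to 6.24 FPKM, all lay below the 3 WT libraries, 6.55 to 14.1 FPKM. The means were 5.01 ± 1.42 FPKM in KO astrocytes and 10.5 ± 3.80 FPKM in WT astrocytes (SD, n = 4 and 3), and the log2 difference was -0.96 (95% interval -1.66 to -0.25, limma adjusted p = 0.921), which did not pass the test over all genes. At day 12 it was at 3.71 to 6.24 FPKM in 3 KO libraries against 10.8 and 14.1 FPKM in 2 WT libraries, and at day 9 at 3.85 FPKM in 1 KO library against 6.55 FPKM in 1 WT library. Of the 10 genes, Jag1 and Hes1 did not overlap between KO and WT astrocytes, where 4.68% of tested genes did not overlap, 2.32% higher and 2.36% lower in KO astrocytes. Both were lower in KO astrocytes. Hes1 averaged 9.69 ± 3.02 FPKM in KO astrocytes and 15.5 ± 4.00 FPKM in WT astrocytes, a log2 difference of -0.65 (95% interval -1.46 to 0.17, limma adjusted p = 0.921). With libraries rescaled to the same sum, the difference was -0.57 for Jag1 and -0.31 for Hes1 (limma adjusted p = 0.729 and 0.755). The overlap was read from FPKM as deposited and depends on that scaling.

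The summed endothelial markers, like Jag1, were lower in KO than in WT astrocytes. The 10 endothelial markers summed to 22.4 to 36.6 FPKM in KO astrocytes and 43.0 to 78.6 FPKM in WT astrocytes, with no overlap, and 7 of the 10 had a lower mean in KO astrocytes. None was at 0 in all libraries of either group, and the defining marker Cldn5 stood at 0.351 to 5.20 FPKM in KO astrocytes and 6.93 to 27.4 FPKM in WT astrocytes. The other defining marker, Pecam1, overlapped, at 1.65 to 19.2 FPKM in KO astrocytes and 3.27 to 12.2 FPKM in WT astrocytes. The same WT library, WT astrocytes 2, had the highest Jag1, the highest endothelial sum and the highest Heyl. It also had the highest summed FPKM of all genes, 3.84e+06 against 1.68e+06 to 2.52e+06 in the other astrocyte libraries. Its estimated depth was the lowest, at 33.9% of the deepest library. The endothelial sums and these orders are in FPKM as deposited, and were not compared with libraries rescaled to the same sum. Among the WT libraries the order of Jag1 and of the endothelial sum was the same. Among the KO libraries it was not: KO astrocytes 2 had the highest sum, 36.6 FPKM, with Jag1 at 3.85 FPKM. Dll4, a Delta-like ligand known from sprouting vessels, was at 0, 0.217, 0.660 and 0 FPKM in KO astrocytes and at 0.913, 2.73 and 0.704 FPKM in WT astrocytes. Notch4, the endothelial receptor, read 3.94, 1.22, 1.09 and 0.489 FPKM in KO astrocytes and 15.5, 6.87 and 0.652 FPKM in WT astrocytes. Other lists also shifted between the genotypes. The mean was higher in KO astrocytes for 9 of 10 neuron, 7 of 9 oligodendrocyte precursor and 7 of 10 oligodendrocyte markers, though their sums overlapped. It was lower for 6 of 10 astrocyte markers. The part of endothelial RNA, or of these other cell types, in the Jag1 values was not tested.

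**Figure D4:**
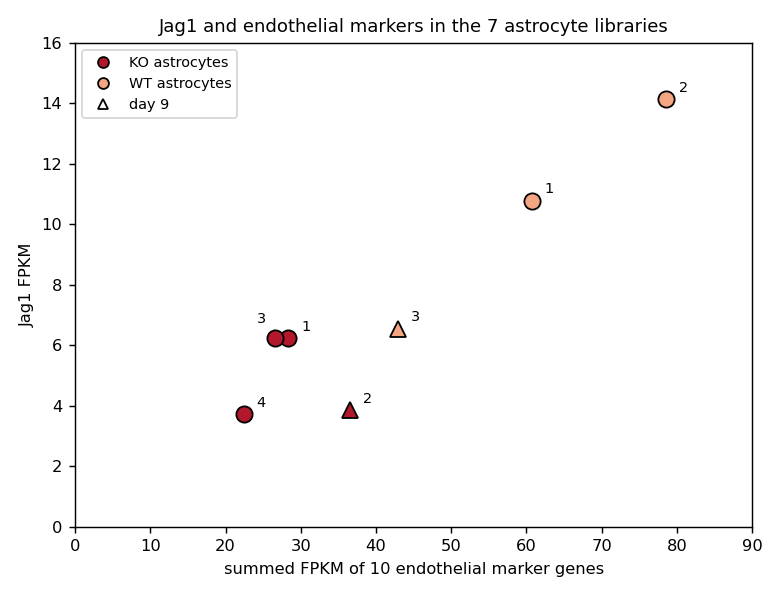
Jag1 FPKM (vertical axis) against the summed FPKM of 10 endothelial marker genes (horizontal axis) in the 4 KO and 3 WT astrocyte libraries, numbered by replicate, with triangles for day 9. The KO libraries sit between 22.4 and 36.6 on the horizontal axis and the WT libraries between 43.0 and 78.6, and all KO libraries lie below all WT libraries on the vertical axis.

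The receptors and the other targets overlapped between KO and WT astrocytes. Notch1 averaged 39.1 ± 16.5 FPKM in KO astrocytes and 25.3 ± 7.64 FPKM in WT astrocytes (SD, n = 4 and 3), a log2 difference of 0.57 (95% interval -0.26 to 1.41). KO astrocytes 1 had the highest Notch1 of the astrocyte libraries, 63.3 FPKM, and the highest sum of 10 neuron markers, 310.4 FPKM. The sums of the other astrocyte libraries were 32.4 to 137.9 FPKM, and the part of neuronal RNA in Notch1 was not tested. Notch2 differed by 0.23 (95% interval -0.21 to 0.68), Notch3 by 0.09 (-0.51 to 0.69) and Hey1 by 0.01 (-0.50 to 0.52). Hes5 averaged 17.7 ± 7.04 FPKM in KO astrocytes and 28.6 ± 11.3 FPKM in WT astrocytes, a log2 difference of -0.62 (95% interval -1.53 to 0.29). The adjusted p was 0.921 or higher for each of these with limma.

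In microglia the tested genes were Notch1 at a log2 difference of KO over WT of 0.27 (95% interval -1.64 to 2.19), Notch2 at -0.07 (-0.64 to 0.49), Dll1 at -0.58 (-2.18 to 1.01) and Hes1 at -0.01 (-1.42 to 1.40). The lowest adjusted p was 0.792, for Dll1 with limma. Notch2 was the most closely bounded of these genes and Notch1 the least. Of the 10 genes, Dll3 and Jag1 did not overlap between the genotypes and were higher in KO microglia, where 15.9% of tested genes did not overlap, 8.41% higher and 7.48% lower. Both had means near or under 1 FPKM and stood below the filter. Without the filter their log2 differences were 0.24 and 0.63 (limma adjusted p = 0.725 for both). Dissociation-induced genes, 12 listed, summed to 2593 to 3000 FPKM in KO microglia and 3984 to 5572 FPKM in WT microglia, with all 12 lower in the mean, and oligodendrocyte markers to 1614 to 2645 FPKM and 1073 to 1822 FPKM, with all 10 higher in the mean. Neutrophil and monocyte markers, 8 listed, summed to 57.9 to 114.2 FPKM in KO microglia and 142.2 to 266.7 FPKM in WT microglia, and border macrophage markers, 8 listed, to 311.4 to 346.6 FPKM and 227.4 to 669.7 FPKM, with all 8 of each list lower in the mean. The sums of the dissociation list and of the neutrophil and monocyte list did not overlap between the genotypes, and those of the other 2 lists did. Their part in the differences between KO and WT microglia was not tested.

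**Figure D5:**
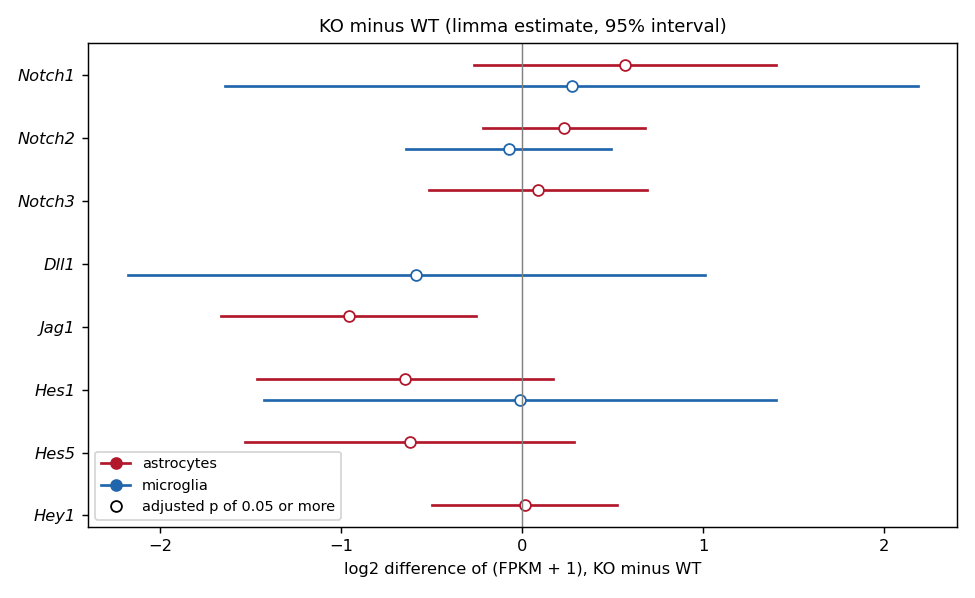
Difference of KO minus WT for each Notch gene that was tested, astrocytes above microglia, on the log2(FPKM + 1) scale, with the 95% interval of the limma estimate. All points are open, as none passed the test. The interval of Jag1 in astrocytes, -1.66 to -0.25, is the one that does not span 0.

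The genotype effect was set against the cell type in a fit of all 13 libraries, as the effect in astrocytes minus the effect in microglia. With limma 0.141% of 16258 tested genes were called, and 1076 had an unadjusted p under 0.05. Among the 7 Notch genes tested 0 were called, and 1 had such a p. The 1 gene was Jag1, which was lower in KO astrocytes and higher in KO microglia. Its interaction was -1.58 ± 0.39 on the log2 scale (SE, limma adjusted p = 0.396). Of the 44 further genes 0 were called, and the smallest p values were those of Notch4, at -2.11 (limma adjusted p = 0.751), and Spen, at -1.59 (limma adjusted p = 0.751).

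Of the further pathway genes, those with the smallest p between genotypes in astrocytes were Adam17 and Bhlhe40. Adam17 averaged 12.6 ± 1.22 FPKM in KO astrocytes and 22.7 ± 7.58 FPKM in WT astrocytes (log2 difference -0.72, limma adjusted p = 0.921). Bhlhe40 averaged 45.1 ± 2.70 FPKM in KO astrocytes and 33.3 ± 8.35 FPKM in WT astrocytes (log2 difference 0.47, limma adjusted p = 0.921). In microglia they were Psenen, a gamma-secretase subunit, at 44.2 to 63.4 FPKM in KO mice and 31.0 to 40.1 FPKM in WT mice (0.63, limma adjusted p = 0.556), and Hes7, at 1.34 to 1.81 FPKM in KO mice and 2.46 to 7.39 FPKM in WT mice (-0.97, limma adjusted p = 0.596). In each of these 4 genes, picked by their small p, the KO and WT libraries did not overlap. A choice by p favours such genes. Of all tested genes, 4.68% in astrocytes and 15.9% in microglia did not overlap.

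The authors' deposited tables of genes that differed between the genotypes list 0 of the 10 genes in astrocytes, among 10 genes in all, and 0 of the 10 in microglia, among 483 in all. Of the further pathway genes, the authors' deposited table for microglia lists Dlk1, Spen and Maml2. In that deposited table Dlk1, a Delta-like protein without the usual receptor-activating domain, has mean normalised counts of 1.00 in KO microglia and 86.4 in WT microglia (adjusted p = 0.00168). Spen has 3839 in KO microglia and 2600 in WT microglia (adjusted p = 0.0178), and Maml2 2873 in KO microglia and 4056 in WT microglia (adjusted p = 0.0375), in the authors' deposited table. None of the 3 was called in the limma fit of the FPKM, where Maml2 differed by -0.31 (limma adjusted p = 0.622) and Dlk1 was below the filter.

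Age was examined in astrocytes, where each genotype had 1 library of day 9. With limma 0.0970% of 13397 tested genes were called, and 1154 had an unadjusted p under 0.05. Among the 7 Notch genes tested 0 were called, and 1 had such a p. That gene was Notch3, at 24.4 to 28.6 FPKM in KO libraries and 18.0 and 35.4 FPKM in WT libraries of day 12, and at 47.1 FPKM in the KO library and 42.7 FPKM in the WT library of day 9. Both day 9 libraries were above all 5 of day 12, and the log2 difference of day 9 minus day 12 was 0.77 (95% interval 0.11 to 1.43, limma adjusted p = 0.511). The further genes with the smallest p were Neurl1b, at 1.65 (limma adjusted p = 0.406), and Numbl, at 1.14 (limma adjusted p = 0.506), both day 9 minus day 12.

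Notch1, Notch2, Notch3, Dll1 and Hes5 share exonic bases with 1 or more noncoding genes of the annotation, most of them on the other strand. Whether the counting used strand is not given in the sources used here, so reads from such partners could not be told apart from those of the named gene. Dll3, Jag1, Jag2, Hes1 and Hey1 share none.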

How the data were processed

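Per the labels' protocols, sorted cells gave RNA that was amplified with a NuGEN V2 kit. Per the submitters' processing notes, TopHat2 2.0.11, Bowtie2 2.2.3, HTSeq 0.6.1p1, Cufflinks, Cuffnorm and DESeq2 were used with build GRCm38; their settings are not given. For all libraries the authors deposited FPKM, scaled by a method that is not stated. Per the file headers, the authors' 2 tables of called genes give the normalised signal of each genotype, log2 fold changes of WT over KO, a test score and a p-value with its adjusted p. Absolute depth is unknown, so no counting interval was computed.

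Symbols and coordinates came from GENCODE release M21 (96.2% of identifiers found). With R 4.3.3 and limma 3.58.1 (trend, two-sided), groups were compared on log2(FPKM + 1) of genes with a mean of at least 1 FPKM over the fitted libraries. Microglia and astrocytes were each fitted alone, and the cell types and the interaction in all 13 libraries, with age as a covariate where it varied. The test was checked on simulated data.

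The members and the lists of pathway and marker genes were chosen with earlier results of these data known. Further pathway genes were named where they passed the test, up to 4 per direction with the largest differences, or else the 2 with the smallest p. Adam10, Adam17, Furin, Rbpj, Maml1, Ep300, Lfng, Aph1a, Aph1b, Ncstn, Spen, Notch4, Dll4, Dlk1, Maml2, Mib1, Mib2, Pofut1, Hes6, Hes7, Dtx3 and Fbxw7, where outside that rule, were named after their values were seen. The alternatives were another filter, pseudocount and scaling, no trend, other covariates, a replicate block and leaving out each library.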

Additional observations from a re-analysis of the deposited data

Results flagged for a closer look

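Jag1 was flagged because its KO and WT libraries separated in opposite directions in the 2 cell types. It was lower in all 4 KO than in all 3 WT astrocyte libraries and higher in all 3 KO than in all 3 WT microglia libraries. Neither difference was called, with limma adjusted p = 0.921 in astrocytes and 0.725 in microglia without the filter. The astrocyte difference minus the microglia difference was -1.58 on the log2 scale (limma adjusted p = 0.396), which did not pass the test over all genes. The range of its adjusted p over the alternatives was 0.253 to 0.696. The microglia values were between 0.113 and 1.43 FPKM. In FPKM as deposited, the summed endothelial markers were also lower in all KO than in all WT astrocyte libraries.

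Dll3 in KO astrocytes was at 0.125 FPKM in 1 library and at 0 in the other 3. With 3 values at 0, any value above 0 in the remaining library would have stood out in the same way, so no rate of chance can be given for it.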

How the results depend on the processing

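The count of called Notch genes was within 1.5 times of the reported count under every alternative that was run: 4 to 6 in KO astrocytes against KO microglia, 4 or 5 in WT astrocytes against WT microglia, and 0 between genotypes, in the interaction and between ages. These counts pool both directions. The equal-sum rescaling called Notch2 lower in WT astrocytes, and the fit without the filter called Dll3 lower in KO astrocytes. Leaving out each library in turn left these counts at 5, 4 and 0, and the log2 differences of the called genes at 4.56 to 4.67 for Notch3, 1.49 to 1.91 for Jag1, 2.99 to 3.92 for Hes5, 5.45 to 5.74 for Hey1 and 0.72 to 0.83 for Notch2 in KO mice, and at 3.93 to 4.59, 3.11 to 3.37, 4.27 to 4.97 and 5.77 to 6.16 for Notch3, Jag1, Hes5 and Hey1 in WT mice. Notch2 reversed with libraries rescaled to the same sum, at -0.046 in KO mice and -0.65 in WT mice; fewer genes were tested there, and the same rescaling moved the median of all genes. Differences that were not called changed sign in 38 other combinations of gene, comparison and alternative. With a pseudocount of 0.1, Jag1 in WT mice was at 4.997. With the replicate number as a block, the counts were 5 in KO mice, 4 in WT mice and 0 elsewhere. The numbers share no stated animal, and deviations of same-numbered libraries correlated between -0.08 and 0.03, so they do not pair the samples. Dll1 gave no value between KO and WT microglia without WT microglia 1 or with the equal-sum rescaling, where it fell below the filter. The shallower astrocyte libraries limit what can be said of Dll1, Dll3 and Jag2.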
